A study of Mangifera indica with 4 samples.

Results

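Ripening of spongy flesh was followed by setting 1 RNA library of spongy fruit at 10 days after harvest against 1 library of spongy fruit at 5 days. Both came from the mesocarp, the edible flesh, of mango (Mangifera indica) cultivar Alphonso. The earlier stage is called table green and the later one mid ripe. The series also has 1 library of healthy flesh at each stage, so its 4 libraries fall into 4 groups of 1. No group has a replicate, and every difference below is a description of these libraries without a test. The sources used here do not say how many fruits went into a library or how spongy fruit were recognised.

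The members were all transcripts whose normalized level averaged 50 or more across the 4 libraries. A normalized level is a read count divided by the size factor of its library. Of 30582 listed transcripts 22200 (72.6%) were members. Loci 2 and 3 of the assembly held most of the reads in both spongy libraries. With 171 and 594 members they were kept apart, which left 21435 members of 10184 loci. Unless a locus is named, members below means these 21435. Their means ran up to 2137087, with a median of 284. A transcript could pass through its level in healthy flesh alone, and 652 members had a mean under 50 over the spongy libraries, while 693 transcripts at or above 50 there were left out. Just inside the limit, 92 of 565 transcripts with a mean of 50 to 55 were at least 2-fold apart between the spongy libraries (16.3%). Just outside, at 45 to 50, 99 of 603 were (16.4%).

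Mango is a climacteric fruit, which ripens after harvest in a burst of ethylene and respiration. Starch is then turned into sugar, cell walls are loosened, chlorophyll is lost and carotenoids and aroma compounds build up. Spongy tissue is a disorder of Alphonso in which areas of the flesh stay pale, sour and corky inside fruit that looks sound. The comparison of the stages asks how the RNA of such flesh changed as it ripened. Transcripts are listed by assembly number without a gene name, so no pathway, gene function or cell type marker could be looked up, and the labelled tissue could not be checked against markers. Each number gives the locus, the transcript within the locus and its length. In such RNA from whole tissue, more cells of a type and more RNA per cell cannot be told apart.

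The reads recovered from the deposited tables came to 62356300 in spongy flesh at 5 days and 56590758 at 10 days. Loci 2 and 3 held 66.9% and 65.7% of them. The members outside these loci had 32.7% and 33.9%, with a median of 347 reads at 5 days and 313 at 10 days. In the healthy libraries loci 2 and 3 held 47.0% of the reads at 5 days and 87.0% at 10 days, and the median member had 474 reads at 5 days and 95 at 10 days there. The spongy libraries were thus alike in depth, and the healthy library of 10 days was the shallowest for the members.

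Most transcripts of spongy flesh stood at similar levels at both stages. Of the 21435 members, 19813 (92.4%) were within 2-fold, counted on the ratio of normalized levels after adding 1 to each. The median log2 ratio of 10 over 5 days was 0.02, and the quartiles were -0.26 and 0.27. Of the rest, 955 (4.46%) were 2-fold or more higher at 10 days and 667 (3.11%) lower. Over all 30577 transcripts with reads, low ones included, the shares were 6.3% higher and 6.99% lower. Both shares of the members were thus below those of all transcripts. How the libraries are scaled moves that balance. Higher transcripts made up 58.9% of those 2-fold apart under the size factors and 48.6% (824 higher and 870 lower) when both libraries were given the same total outside loci 2 and 3.

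Large differences lay almost all on the higher side. Of the members 370 (1.73%) were 4-fold or more higher at 10 days, against 48 lower (0.22%), where all transcripts gave 2.61% and 1.02%. At least 8-fold higher were 200 (0.93%) and lower 2, against 1.53% and 0.16% of all transcripts. At 32-fold 72 members were higher and 0 lower, and 5 were at least 1024-fold higher. This asymmetry was there in each scaling tried: the 4-fold counts ran from 346 to 373 higher and from 45 to 63 lower. Within counting error each 4-fold difference stayed beyond 2-fold. All 370 members higher and all 48 lower by 4-fold had a 95% interval wholly beyond 2-fold, as had 693 of the 955 and 290 of the 667. Some large folds still rest on few reads: of the 200 at least 8-fold higher, 48 had at most 10 reads at 5 days. These Clopper-Pearson intervals for the split of reads between the libraries cover counting error only, and say nothing of the variation between fruits.

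**Figure D1:**
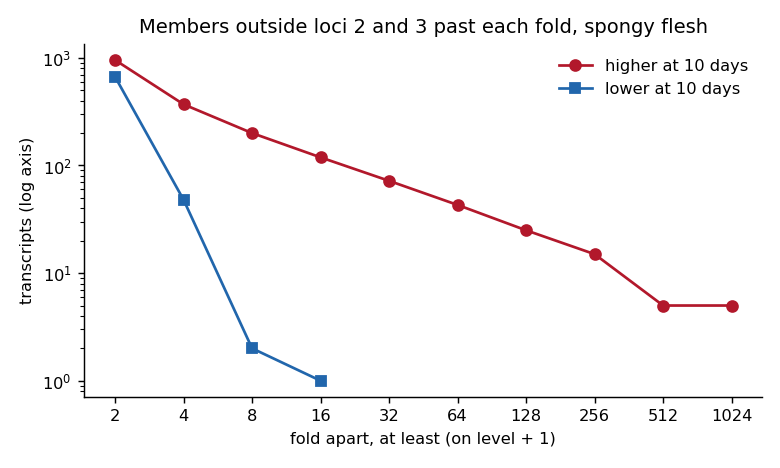
Number of members outside loci 2 and 3 (log axis) that were at least the given fold higher (red circles) or lower (blue squares) at 10 than at 5 days in spongy flesh, 1 library each. The counts fall from 955 to 200 on the higher side and from 667 to 2 on the lower side between 2-fold and 8-fold, and the lower side ends at 16-fold with 1 transcript.

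The levels of the higher and lower members are given here for each stage. The 370 at least 4-fold higher had a median level of 51.3 at 5 days and 670 at 10 days. The 200 at least 8-fold higher went from a median of 20.1 (25.5 reads) to 659 (731 reads). Their levels in healthy flesh were low at both stages, with medians of 7.08 (13 reads) at 5 days and 25.7 (10 reads) at 10 days. The 48 at least 4-fold lower had a median level of 228 at 5 days and 44.2 at 10 days, and the highest of them stood at 1102.5 at 5 days. The median over all members was 274 at 5 days and 282 at 10 days. These sets were chosen by their ratio, which sets part of the gap between the stages. It also sets part of the difference between the sets in their level at 5 days.

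Some transcripts were almost without reads at 5 days. Of the 21435 members, 54 had at most 10 reads in spongy flesh at 5 days. Among these, 48 transcripts of 42 loci had at least 100 reads at 10 days. They had 0 to 10 reads (median 5) at 5 days and 109 to 31359 (median 371.5) at 10 days. In healthy flesh the same transcripts had 0 to 53 reads (median 5) at 5 days and 0 to 67 (median 6) at 10 days, and 31 of the 48 had at most 10 reads in both healthy libraries. These are raw reads of libraries with unequal size factors, and the choice of transcripts fixed that the spongy library of 10 days is high. Of the 48, 10 had at least 1000 reads in it. In the other direction, 0 members went from at least 100 reads to at most 10.

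In summed level the higher members counted for more than the lower ones. The 955 held 414068 of the normalized level at 5 days and 1561876 at 10 days, which was 2.57% and 9.05% of the level of all members outside loci 2 and 3. The 667 went from 451932 to 186884, from 2.81% to 1.08%. All members together went from 16085056 to 17267057. Gains summed to 2833547 and losses to -1651546, of which the 2-fold transcripts made up 40.5% and 16.0%. The gain was spread out: the 10 largest gains held 13.0% of it and the 100 largest 34.4%.

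The most abundant transcripts changed in part. Ranked by level per kilobase, 80 of the top 100 members at 5 days were also in the top 100 at 10 days, and 800 of the top 1000. In healthy flesh 53 and 701 were shared, with the 10-day library at lower depth, and the difference between the conditions was not tested. Of the 20 that entered the spongy top 100 at 10 days, 11 were at least 2-fold higher. Of the 20 that left it, 7 were at least 2-fold lower. Over the 120 transcripts in either top 100 the median log2 ratio was 0.09, from -1.48 to 12.1.

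Among the transcripts at least 2-fold apart, the pair with the largest gain and the pair with the largest loss in normalized level, at most 1 per locus, were followed through all libraries. This ranking favours long and abundant transcripts. The first of the higher pair, Locus_77_Transcript_2_5_Confidence_0.600_Length_1696, had 14253 reads in spongy flesh at 5 days and 50162 at 10 days. Its normalized level went from 11248 to 45213, a 4.02-fold difference (counting interval 3.95 to 4.10). In healthy flesh its level was 8905 at 5 days and 43740 at 10 days. Healthy and spongy flesh thus had similar levels at each stage under the size factors. The 10-day libraries were the higher ones in both, except that with equal library totals the healthy log2 ratio turned from 2.30 to -0.45. The other listed transcripts of locus 77, 2 in all, behaved alike, with log2 ratios of 2.01 and 2.02 in spongy and 2.21 and 2.25 in healthy flesh. The authors' deposited table, from DESeq2, gave a log2 fold change of 2.01 in spongy flesh with a standard error of 1.42 and an adjusted p of 1.

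The second, Locus_5603_Transcript_15_16_Confidence_0.193_Length_1848, had 7 reads in spongy flesh at 5 days and 31359 at 10 days. The healthy libraries had 7 reads at 5 days and 11 at 10 days. The spongy library of 10 days therefore stood alone, with a normalized level of 28265 against 5.52 in spongy flesh at 5 days, 3.81 in healthy flesh at 5 days and 28.3 in healthy flesh at 10 days. The ratio of the spongy libraries was 5116 (2483 to 12727), the largest log2 ratio of any member (12.1). Per kilobase its level at 10 days was 15295, against 26658 for the transcript of locus 77. The other 7 listed transcripts of locus 5603 had 0 to 21 reads at 5 days and 26 to 3144 at 10 days, and each was at least 2-fold higher, with log2 ratios from 2.07 to 10.6. Of these 7, 3 were members. The authors' deposited table gave a log2 fold change of 12.3 with a standard error of 5.52 and an adjusted p of 1.

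The largest loss was that of Locus_110_Transcript_1_27_Confidence_0.153_Length_9059, a long transcript with 108504 reads in spongy flesh at 5 days and 46208 at 10 days. Its normalized level was 85629 and 41649, a 2.06-fold difference (2.03 to 2.08), just past the 2-fold limit. In healthy flesh it had a level of 72765 at 5 days and 38796 at 10 days, 1.88-fold lower. Its own locus was divided. Of the 7 other members of locus 110, which were between 1392 and 2990 nt long, 6 had log2 ratios above 0 in spongy flesh, up to 0.93, and 1 was below, at -0.35. In healthy flesh all 7 lay between 0.66 and 1.06 under the size factors, but 4 of 7 were above 0 with equal totals outside loci 2 and 3, and 0 of 7 with equal library totals. The longest transcript was lower at 10 days in both conditions in each scaling, and none of the shorter ones reached 2-fold in spongy flesh. The sources used here do not say how reads shared by transcripts of a locus were counted. The authors' deposited table gave a log2 fold change of -1.04 (standard error 0.83, adjusted p 1).

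The next loss, Locus_200_Transcript_3_13_Confidence_0.696_Length_1257, went from 34102 reads in spongy flesh at 5 days to 10964 at 10 days, and in normalized level from 26913 to 9882. It was 2.72-fold lower (2.67 to 2.78). In healthy flesh the level was 68510 at 5 days and 25502 at 10 days, 2.69-fold lower. Under the size factors healthy flesh was higher at each stage, and the ratio between the stages was nearly the same in both conditions. At 10 days the healthy library had 9925 reads of it against 10964 in the spongy one, so the order at that stage rests on the scaling. With equal library totals its healthy log2 ratio was -4.17, and -2.15 with equal totals outside loci 2 and 3, against -1.50 and -1.55 in spongy flesh. The other 3 listed transcripts of locus 200 had log2 ratios from -1.48 to -0.87 in spongy and -1.36 to -0.90 in healthy flesh. One of them, of 1007 nt and singled out after its values were seen, had its levels the other way round between conditions. It stood at 15034 and 5971 in spongy flesh at 5 and 10 days and at 1436 and 578 in healthy flesh, with log2 ratios of -1.33 and -1.31. In the authors' deposited table the named transcript had a log2 fold change of -1.45 (standard error 1.35, adjusted p 1).

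**Figure D2:**
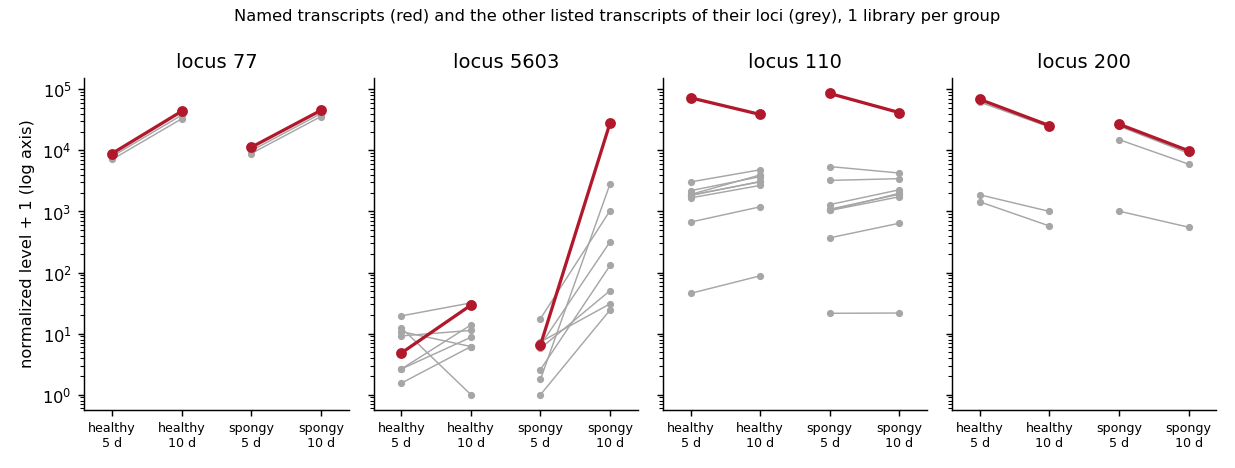
Normalized level plus 1 (log axis) of the 4 named transcripts (red) and the other listed transcripts of their loci (grey) in the healthy and spongy libraries of 5 and 10 days, 1 library per group; lines join the stages of a condition. Under the size factors loci 77 and 200 have nearly parallel lines in both conditions. With equal library totals the healthy line of locus 77 slopes down and that of the named transcript of locus 200 falls more steeply. Locus 5603 is high only in the spongy library of 10 days among the 4 libraries. In locus 110 the long named transcript slopes against most of the others (in healthy flesh not with equal library totals).

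In most loci of several members that held one at least 2-fold apart, not every member was. Of 4054 loci with at least 2 members, 249 held a member at least 2-fold higher, 215 one at least 2-fold lower, and 9 held both. The gap between the highest and the lowest log2 ratio within a locus had a median of 0.35, and it was at least 1 in 424 loci (10.5%). Every member was at least 2-fold higher in 67 loci and at least 2-fold lower in 29. Where a locus had a member at least 4-fold higher, which was so in 69 loci, another member was under 2-fold higher or was lower in 28.

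Locus 2, the most abundant locus of the assembly, held 51.3% of the reads at 5 days and 51.0% at 10 days in its members. Of the 171, 155 were within 2-fold, and the 70 with a level of at least 100000 at 5 days, which made up 90.8% of its level, had log2 ratios between -0.27 and 0.43. The median log2 ratio of the locus was 0.10, but -0.0006 with the same total outside loci 2 and 3, so it has no direction that every scaling shares. The other 16 members were at least 2-fold higher at 10 days (9.36%, against 6.3% of all transcripts), 15 of them at least 4-fold and 13 at least 8-fold, and 0 were 2-fold lower. These 16 were minor transcripts, with a median length of 522 nt against 1662 nt in the 155. Their levels ran from 6.31 to 4746 at 5 days (median 36.7) and from 78.4 to 20999 at 10 days (median 2408). They went from 0.0236% to 0.209% of the level of the locus. In healthy flesh 10 of the 16 were at least 2-fold higher at 10 days, as were 146 of the 155.

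The 16 lay close together in the numbering of locus 2, a feature looked at after their values were seen. The assembly numbers 542 transcripts in this locus, and 15 of the 16 have numbers from 88 to 192, a stretch that holds 39 members. All 11 members numbered 168 to 192 were at least 2-fold higher. The remaining one is number 428. The sources used here do not say what the order of transcripts within a locus stands for.

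Locus 3 had 15.6% of the reads at 5 days and 14.7% at 10 days in its 594 members. Of these 565 were within 2-fold, 9 were higher by 2-fold or more (1.52%) and 20 lower (3.37%), both below the 6.3% and 6.99% of all transcripts. Its median log2 ratio was -0.02. The 20 lower ones went from a summed level of 70431 to 32093, 0.918% and 0.428% of the locus. In healthy flesh 13 of these 20 stood 2-fold or more above their 5-day level at 10 days and 5 as far below it, and their summed level went from 38441 to 3750508. In summed level these 20 were thus lower at 10 days in spongy and higher in healthy flesh. The healthy sum at 10 days was uneven, with a median level of 33264 and a highest of 1084275. The whole of locus 3 went from 7288891 to 28297079 in healthy flesh, where 73 of the 565 were 2-fold or more higher and 20 of the 565 lower.

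**Figure D3:**
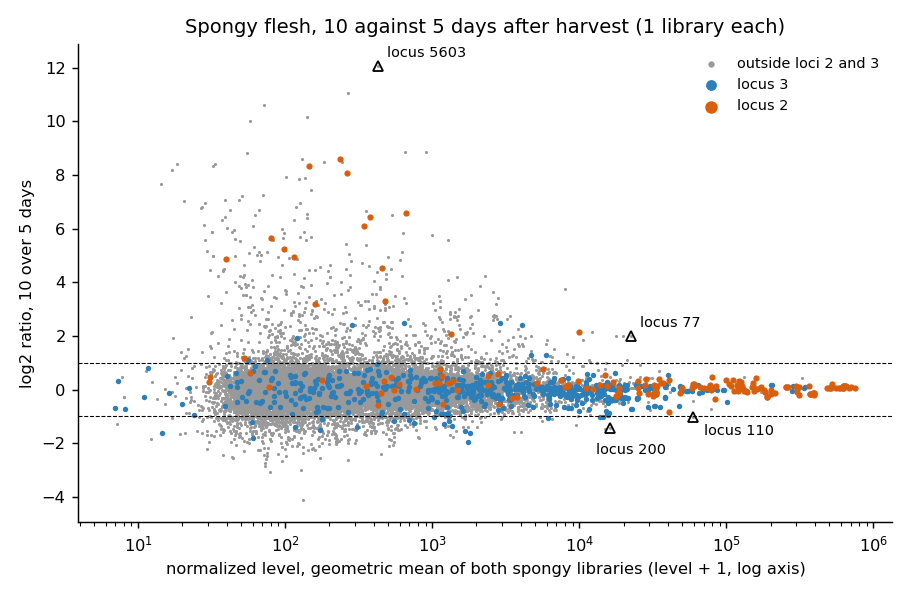
Log2 ratio of 10 over 5 days in spongy flesh against the normalized level (geometric mean of both spongy libraries, log axis), 1 point per member; grey outside loci 2 and 3, blue locus 3, orange locus 2, triangles the 4 named transcripts, dashed lines 2-fold. The abundant transcripts of locus 2 lie near 0, its 16 higher ones stand up to 8.59 at lower levels, and the points far from 0 outside these loci are nearly all above it.

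The level and the length of a transcript both went with how often it was apart. With a mean of 50 to 100, 235 of 4021 members (5.84%) were higher by 2-fold or more and 275 (6.84%) lower. At 300 to 1000 it was 249 of 6941 (3.59%) and 108 (1.56%). Of the 3405 with a mean of 1000 or more, 171 (5.02%) were higher and 31 (0.910%) lower, and at 4-fold 65 were higher and 0 lower. The share lower thus went down from class to class, while the share higher was near its first value again in the last class. In the lowest length quartile, up to 916 nt, the shares were 5.32% higher and 3.85% lower, and in the highest, from 1970 nt, 2.95% and 2.30%. Short members also had lower means, with a median of 109 in the lowest and 640 in the highest quartile, and length and level were not separated.

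Members that were the only listed transcript of their locus stood out on the higher side. Of 5710 such members 418 (7.32%) were at least 2-fold higher, among them 118 by 8-fold or more. In loci of 2 to 5 listed transcripts it was 3.28% of 8834, in loci of 6 to 20 it was 3.70% of 5459, and in loci of more than 20 it was 3.14% of 1432. At least 2-fold lower were 217, 203, 143 and 104 members in the same order, the last being 7.26% of its class. The loci of more than 20 transcripts were the only class of the 4 with more lower than higher members in spongy flesh.

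The locus number, which the assembly assigned, went with the result as well. In loci 5000 to 8999, joined after the values per 1000 were seen, 517 of 5242 members (9.86%) were at least 2-fold higher, against 438 of 16193 (2.70%) elsewhere. These loci held 159 of the 200 members that were at least 8-fold higher, and 20, 10, 8 and 6 of the 48 described above as almost without reads at 5 days lay in loci 5000 to 5999, 6000 to 6999, 7000 to 7999 and 8000 to 8999. In the range 13.2% of members of single-transcript loci and 7.12% of the others were higher, against 3.17% and 2.58% elsewhere. Means over the libraries were lower in the range, with a median of 173 against 356 elsewhere. The part of level in this pattern was not tested. Scaled to equal totals without loci 2 and 3, the shares higher were 8.97% and 2.19%. Healthy flesh had raised shares there too under the size factors. In loci from 5000, 6000, 7000 and 8000, 9.56%, 9.41%, 8.35% and 7.38% were at least 2-fold higher, against 6.42% of all members. At least 2-fold lower were 12.5%, 16.0%, 13.6% and 12.3%, against 10.2%.

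In each 1000 from locus 10000 to 13991 more members were lower than higher. Of the 332 members in loci 11002 to 11997, 58 (17.5%) were at least 2-fold lower and 5 higher. Among these 332, 28.9% were at least 2-fold lower in healthy flesh and 2.71% higher. Of the 67 in loci 13018 to 13991, 35 (52.2%) were at least 2-fold lower, 12 at least 4-fold, and 0 higher. Their median level was 167 at 5 days and 57.7 at 10 days, and their median mean over the libraries was 75.6. So near the limit for members, a transcript could pass through a high level in spongy flesh at 5 days. Being lower at 10 days is then set in part by the choice of members. How far this holds for the 67 was not tested, and the share over all listed transcripts of these loci is not given here. These 67 were few but made up 12 of the 48 members at least 4-fold lower. Healthy flesh had 10.4% of the 67 at least 2-fold lower at 10 days and 19.4% higher. The last 76 members, in loci 14031 to 14452, were short, with a median of 258 nt, and held their level. Their median was 683 at 5 days and 759 at 10 days, and 1 of them was 2-fold apart. In healthy flesh the median log2 ratio of these 76 was 4.12, near that of locus 2 there (4.28).

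**Figure D4:**
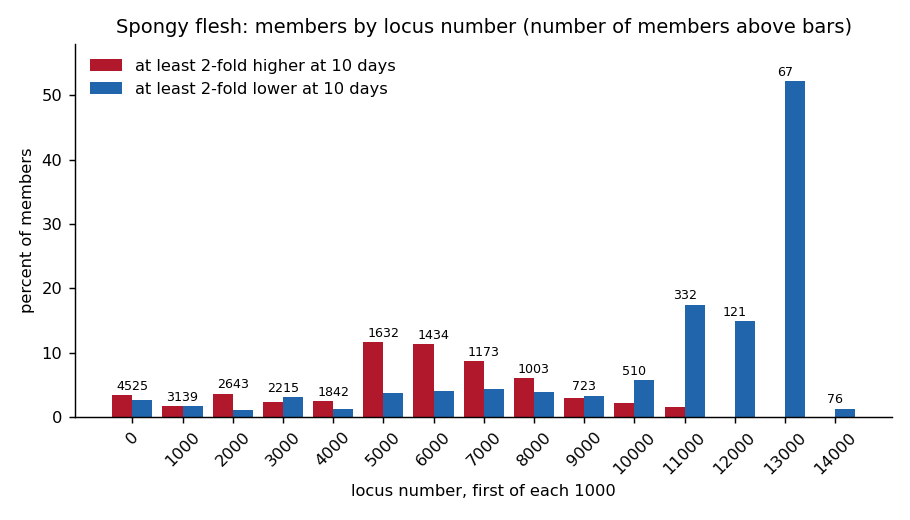
Percent of members outside loci 2 and 3 at least 2-fold higher (red) or lower (blue) at 10 than at 5 days in spongy flesh, for each 1000 locus numbers, with the number of members above the bars. The higher share is 11.7% and 11.4% at loci from 5000 and 6000, and the lower share reaches 52.2% of 67 members from locus 13000.

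Ripening of healthy flesh was set beside that of spongy flesh, which shares no library with it. In healthy flesh 1376 of the 21435 members (6.42%) stood 2-fold or more above their 5-day level at 10 days and 2178 (10.2%) as far below it, where all transcripts gave 9.15% and 12.5%. More members were thus apart than in spongy flesh, on libraries of unequal depth, and the difference was not tested. Across members Pearson's r between the log2 ratios of the conditions was 0.31 and Spearman's rho 0.26. This is a description over 21435 transcripts that share their libraries, with no p-value. Ratios had the same sign in 58.1% of members. The healthy ratios depend on scaling: their median was -0.01 under the size factors, -2.73 with equal library totals and -0.73 with equal totals after leaving out loci 2 and 3. The levels of healthy flesh given here, those of the named transcripts included, rest on the size factors in the same way.

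Of the 955 members higher in spongy flesh, 410 (42.9%) were also at least 2-fold higher in healthy flesh and 114 (11.9%) at least 2-fold lower. The 410 are 29.8% of the 1376 that were higher in healthy flesh. Of the 667 lower in spongy flesh, 222 (33.3%) were also lower in healthy flesh, which is 10.2% of the 2178 there, and 46 (6.90%) higher. These counts rest on the scaling of the healthy libraries. With the same total outside loci 2 and 3 in each library, 250 members were higher in both and 487 lower in both. Under that scaling 824 of all 21435 members were higher and 870 lower in spongy flesh, and 519 higher and 7055 lower in healthy flesh. Set against the median member of healthy flesh, which moves with the scaling, 681 of the 955 (71.3%) were above it and 437 of the 667 (65.5%) below it, and between 681 and 705 and between 426 and 437 in the scalings tried.

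The share that went the same way in healthy flesh was larger for stronger differences on the higher side, and not on the lower side. Of the 48 members at least 4-fold lower in spongy flesh, 15 (31.2%) were at least 2-fold lower in healthy flesh, near the 33.3% at 2-fold, and both of those at least 8-fold lower were 2-fold or more higher there. These 2 had few reads in healthy flesh, with a median of 13 at 5 days and 7.5 at 10 days. Of the 200 members at least 8-fold higher in spongy flesh, 141 (70.5%) were at least 2-fold higher in healthy flesh too, and 171 were above the healthy median. With the same total in each library the former was 26 and the latter 180, a count that scaling can hardly move, as said above. In healthy flesh the 200 had a median of 13 reads at 5 days and 10 reads at 10 days. Their higher level at 10 days there thus rests on few reads and on the size factors (1.84 and 0.389). Of these 200, 150 had a mean level under 50 in healthy flesh, and so were members through spongy flesh alone. Their median level at 10 days was 20.6 in healthy and 575 in spongy flesh, a gap that this choice of transcripts sets in part. In the other 50 the medians were 182 and 1197. Of the 150, 101 (67.3%) were at least 2-fold higher in healthy flesh, where 162 of 1090 other members with so low a level (14.9%) were. Both sets passed the limit through spongy flesh, and both shares were counted under the size factors only. The difference between these shares was not tested.

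**Figure D5:**
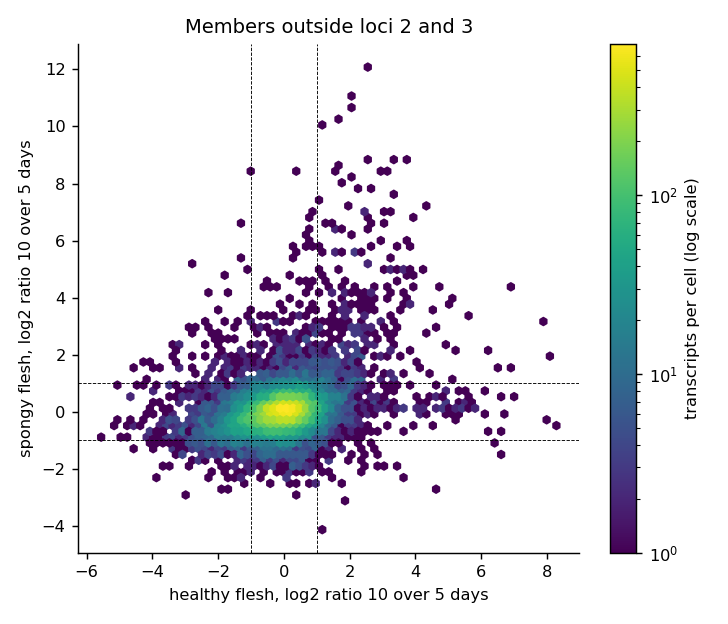
Log2 ratio of 10 over 5 days in spongy flesh against that in healthy flesh for the 21435 members outside loci 2 and 3, with colour for the number of transcripts per cell (log scale) and dashed lines at 2-fold. Of the 200 members above 3 on the spongy axis, 141 lie to the right of 1 on the healthy axis, while the densest cells sit at 0 on both.

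The authors' deposited table, from DESeq2, gave 0 of the 21435 members an adjusted p under 0.05, while 59 were under 0.05 unadjusted, and 58 of the 59 were higher at 10 days. The standard errors of its log2 fold changes had a median of 0.67. With 1 library per group that test has no replicates to estimate the spread from, so these p-values show neither likeness nor difference.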

How the data were processed

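Flesh RNA was column-purified and sequenced on an Illumina instrument, per the labels' protocols. Per the submitters' processing notes the authors used CASAVA (1.8.2), Bowtie2 (2.2.3) and DESeq2. No source used here names the assembly of the transcripts, how reads were counted or the model fitted. The 4 tables are the authors' own comparisons, with 0 columns of single libraries. Their deposited mean is a signal, read counts over size factors averaged across 4 libraries. Per the file headers, the other columns are the authors' log2 fold changes with standard errors, test statistics (scores) and p-values.

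Levels per library were worked out from the mean and the log2 fold changes, which closed around the 4 tables to within 4.8e-14. Multiplied by size factors recomputed as medians of ratios (1.27 and 1.11 in spongy, 1.84 and 0.389 in healthy flesh, at 5 and 10 days), 99.98% of the 103978 levels below 1000 reads came within 0.05 of whole reads, and 94.6% of the 17594 larger ones. Read the other way round, 10.0% were whole. Values under 0.35 read were set to 0. Which library is spongy rests on the table names. These steps were tested on simulated data.

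Transcripts were counted at 2-, 4- and 8-fold on log2 ratios after adding 1, which understates low ones. Members, classes and the rule for naming (largest gain and loss in level, 2 transcripts each way) were chosen with earlier results of these data known. Of the transcript numbers 0 matched the 38372 genes of assembly CATAS_Mindica_2.1. Alternatives were 0.5 or 10 added, other minimums, 3 other scalings (same total, same total outside loci 2 and 3, and TMM with 30% of ratios and 5% of levels trimmed) and sums by locus. Computation was in Python (3.11.15) with scipy (1.17.1), pandas (2.3.3) and numpy (2.4.6), and plots were drawn with matplotlib (3.10.9).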

Additional observations from a re-analysis of the deposited data

Results flagged for a closer look

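Opposite directions in the conditions were found for 114 members at least 2-fold higher in spongy and at least 2-fold lower in healthy flesh at 10 days, and for 46 the other way round. Each condition has 1 library per stage, and the difference was not tested. The 114 are 11.9% of the members higher in spongy flesh, near the 10.2% of all members that were lower in healthy flesh. The 46 are 6.90% of those lower in spongy flesh, near the 6.42% of all members that were higher in healthy flesh. Neither share therefore sets these transcripts apart from the rest. The 114 transcripts of 98 loci had median levels of 164 at 5 days and 680 at 10 days in spongy flesh, and 145 and 39.8 in healthy flesh. The choice of transcripts by both ratios sets the gap at 10 days in part. The 46, of 42 loci, had median levels of 233 and 73.5 in spongy and 8.71 and 34.7 in healthy flesh, where the latter rest on a median of 16 and 13.5 reads. Scaled to equal totals the counts were 610 and 4. Scaled to equal totals without loci 2 and 3 they were 166 and 24. With equal totals, however, 20873 of all 21435 members were at least 2-fold lower in healthy flesh and 111 higher. Without loci 2 and 3 these were 7055 and 519. The larger counts of 610 and 166 thus come with more members lower in healthy flesh as a whole.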

How the results depend on the processing

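In spongy flesh the log2 ratios of the 4 named transcripts kept their direction and stayed at least 2-fold apart with 0.5 or 10 added and under each scaling. Their healthy ratios were recomputed as an alternative chosen after seeing the data. With equal totals that of locus 77 turned to -0.45 and that of locus 5603 came to 0.13. Those of loci 110 and 200 came to -3.65 and -4.17. Without loci 2 and 3 in the totals the ratios of loci 110 and 200 came to -1.63 and -2.15. The counts in spongy flesh moved with the minimum level, and those over both conditions with the scaling. Without a minimum 1891 were at least 2-fold higher and 2110 lower, and 775 and 311 at 4-fold. With a minimum of 10 they were 1733 and 1824, and 705 and 208. With a minimum of 200 they were 514 and 209, and 194 and 6. At 2-fold the lower side was thus the larger one with a minimum of 10 or none. Summed by locus, 577 of 10275 loci were higher and 304 lower at 2-fold, and 26 lower at 4-fold. With 10 added 25 were lower at 4-fold. The median log2 ratio of members was -0.0083 without a minimum, -0.0048 with 10, 0.045 with 200, and 0.027 with TMM. Scaled to equal totals it was -0.032, the medians of loci 2 and 3 were 0.049 and -0.072, 43 members were higher in both conditions and 739 lower in both. Scaled to equal totals without loci 2 and 3, these values were -0.081, -0.00061, -0.12, 250 and 487. The minimums and the sums differ by construction in the transcripts counted; for the scalings the cause was not tested. The effect of leaving out a library could not be had with 1 per group. No paired analysis was possible because each group has 1 library.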
